A study of Mus musculus with 4 samples.

Results

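The genes described here are 39 direct targets of the transcription factor p53 that act in apoptosis, DNA repair, metabolism and cell cycle arrest, leaving aside the inhibitors of cyclin-dependent kinases. They were chosen by gene name from known targets, with earlier results of these data known, and all 39 were found among the 55356 genes of the deposited table. Of these, 38 had a mean of at least 10 normalized counts over the 4 libraries and entered the comparisons, among 12483 genes that passed the same minimum. The remaining target, *Perp*, a membrane protein of cell junctions, had 1, 1, 6 and 1 normalized counts and is given no ratio.

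The libraries came from immortalized bone marrow-derived macrophages of mice lacking the protein kinase MK2, a kinase activated by p38α. The cells carried either an empty retroviral vector expressing *GFP* (i*MK2*-KO +*GFP*) or the same vector with *MK2* (i*MK2*-KO +*MK2*). Both lines thus share the knockout background and were set up to differ in the reintroduced kinase. Any other difference between the lines cannot be told apart from that of the kinase. The lines are written +*GFP* and +*MK2* cells below. The sample labels call the genotype of the second line wild type. Each line was left untreated (UT) or received murine IL-1α (5 ng/mL, 1 h), and each of the 4 conditions is 1 library, so there is no replicate error and no test between conditions.

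Values are normalized counts in the order UT and IL-1α +*GFP*, then UT and IL-1α +*MK2*, unless stated otherwise. Ratios are log2 ratios of 2 libraries after adding 1 to each value, with the exact 95% Clopper-Pearson interval in brackets. The interval takes each normalized count as a number of reads and covers counting error only, not the difference between cultures. A gene is called higher or lower where the ratio was at least 1.5-fold (0.58 on the log2 scale) and the interval excluded 0. Gene positions are those of the deposited table.

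p53 is held at a low level by the ubiquitin ligase MDM2 and its partner MDM4, and accumulates after DNA damage and other stress. It binds DNA as a tetramer at a pair of decamers with a C and a G at fixed places in their core, usually near the start or in the first intron of its targets. Its targets stop the cell cycle, repair DNA, restrain growth signaling or start cell death through BCL-2 family proteins and death receptors. Many are also read by other factors, among them NF-κB and the stress factor ATF4. The comparison of the lines shows how the transcripts of these targets stand in macrophages without and with MK2, and the comparison with IL-1α shows how they stand after a short inflammatory stimulus.

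The totals were close, from 24891906 to 25733071 normalized counts per library. *Mapkapk2*, the gene of MK2, had 561 and 1585 normalized counts in the +*GFP* libraries and 38357 and 38141 in the +*MK2* libraries, as the labels say. All 10 macrophage markers were present, summing to between 116901 and 131599 normalized counts, whereas the 5 fibroblast markers were at 0 and the epithelial, B cell, neutrophil and T cell markers summed to at most 48. Of the macrophage markers, *Adgre1*, *Mertk*, *Fcgr1* and *Mrc1* were lower in +*GFP* in both comparisons of the lines. They are 40.0% of the markers, against 8.82% of all genes in UT and 9.31% in IL-1α cells. *Cd14* was higher in +*GFP* in both comparisons (10.0%, against 6.00 and 7.13% of all genes). The part of this shift in the ratios below was not tested. Fewer cells of a kind and less RNA per cell cannot be told apart in these libraries.

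RefSeq promoter windows (GRCm38.p6, 250 bases before to 50 after the start) were held for 31 of the 39 targets. The p53 consensus, a pair of decamers with up to 13 bases between them, was searched with the core C and G of both decamers kept and at most 2 mismatches elsewhere. Since the consensus is a palindrome, 1 strand covers both. It was found in 5 of the 31 targets (16.1%), in 4.71% of the 27025 genes with a window and in 4.47% of the 9055 with a mean of at least 10. For this and the other motifs below, a gene counted if any of its windows matched. The 31 targets had 48 windows and the 27025 genes had 32851, so that more sequence was searched per target. The set was chosen from known p53 targets, so that its share of p53 matches is no independent result. The best match of each of the 5 is shown to set the sequence beside the transcript values, with the decamers in capitals and the bases between them in lower case, on the strand of the gene.
Ccng1: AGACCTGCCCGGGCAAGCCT
Bax: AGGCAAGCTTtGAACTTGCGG
Ckap2: AGACATGTCCTGACTTGTCA
Gadd45a: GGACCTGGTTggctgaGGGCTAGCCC
Sesn1: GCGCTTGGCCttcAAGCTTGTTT
The match of *Ccng1* had 1 mismatch and lies on the minus strand at chr11:40755462-40755481, with its first base at position −195 from the start. *Bax* (chr7:45467079-45467099, minus strand), *Ckap2* (chr8:22186003-22186022, minus strand), *Gadd45a* (chr6:67037438-67037463, minus strand) and *Sesn1* (chr10:41887253-41887275, plus strand) had 2 mismatches each. A single decamer without mismatch was present in 11 of the 31 targets (35.5%), against 9.55% of all genes with a window. A match is a description of letters, and the sites of many targets lie outside this window. Among the 5 genes shown, the ratios between the UT lines were −0.89 for *Gadd45a*, −0.80 for *Ckap2*, −0.48 for *Ccng1*, 0.03 for *Bax* and 0.10 for *Sesn1*, so that genes with a match stood both below and level with +*MK2*.

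In UT cells, 10 of the 38 targets (26.3%) were lower in +*GFP* than in +*MK2*, against 8.82% of all 12483 genes. Only *Fas* was higher (2.63%, against 6.00% of all genes). The targets lower by this rule were *Phlda3*, *Eda2r*, *Tnfrsf10b*, *Psrc1*, *Sesn2*, *Gadd45a*, *Ckap2*, *Slc19a2*, *Cd82* and *Sulf2*. After IL-1α, 9 targets were lower (23.7%, against 9.31% of all genes) and 6 were higher (15.8%, against 7.13%). With values scaled to *Gapdh* the split after IL-1α was 12 lower and 4 higher, and 11.5% of all genes were then lower and 5.73% higher. The median ratio of the targets was −0.05 in UT and −0.15 in IL-1α cells, close to the 0.02 and 0.03 of all genes, so that the typical target differed little between the lines. The lower quartile stood further off, at −0.58 in UT cells against −0.22 for all genes.

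**Figure D1:**
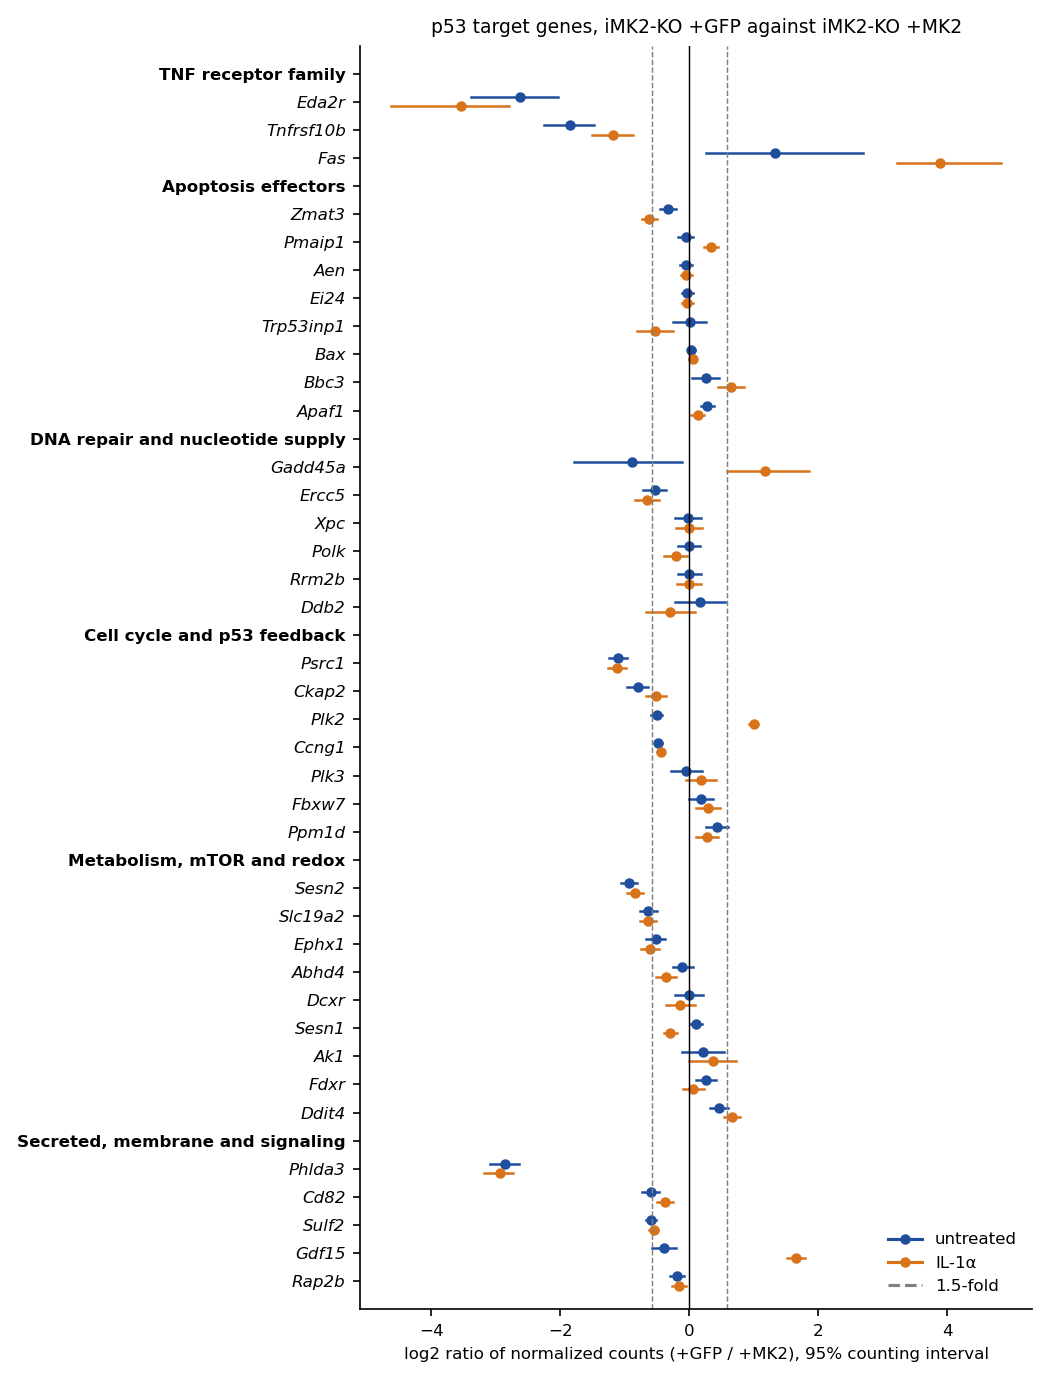
Log2 ratio of +*GFP* over +*MK2* for the 38 targets, in UT and in IL-1α cells, ordered by function class, with bars for the 95% counting interval and dashed lines at 1.5-fold. *Phlda3* and *Eda2r* lie furthest left in both conditions, and *Fas* lies furthest right.

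The UT and the IL-1α comparison of the lines share no library. Of the 38 targets, 6 were lower in both, namely *Phlda3*, *Eda2r*, *Tnfrsf10b*, *Psrc1*, *Sesn2* and *Slc19a2*. They make up 60.0% of the targets lower in UT cells and 66.7% of those lower in IL-1α cells, which is near the 67.3 and 63.8% of all genes. Of the 38 targets they are 15.8%, against 5.94% of all genes. *Fas* was higher in both. *Gadd45a* was lower in UT and higher in IL-1α cells, a change of side that 31 of the 12483 genes showed. In 17 of the 38 targets (44.7%) both +*GFP* libraries lay below both +*MK2* libraries, which held for 31.0% of all genes, and in 9 (23.7%) both lay above, which held for 37.2%.

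The first class holds 3 receptors of the TNF receptor family, of which *Fas* and *Tnfrsf10b* are death receptors. *Eda2r*, the receptor for the ectodysplasin EDA-A2 on the X chromosome (96377446 to 96420822), had 23, 12, 147 and 150 normalized counts. Both +*GFP* libraries were far below both +*MK2* libraries, with ratios of −2.62 (−3.38 to −2.04) in UT and −3.54 (−4.63 to −2.80) in IL-1α cells. The step from 23 to 12 within +*GFP* was within counting error (−0.88, −2.08 to 0.13).

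*Tnfrsf10b*, the mouse receptor for the death ligand TRAIL (chromosome 14, 70004921 to 70021860), had 73, 123, 265 and 281. It was lower in +*GFP* both in UT (−1.85, −2.25 to −1.48) and in IL-1α cells (−1.19, −1.51 to −0.88). IL-1α raised it in +*GFP* cells (0.74, 0.32 to 1.19), yet the raised value was still below both +*MK2* values.

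*Fas*, the receptor of the Fas ligand (chromosome 19, 34268066 to 34305172), went the other way with 24, 236, 9 and 15. A single library, IL-1α-treated +*GFP*, stood far above the rest. The ratio between the lines was 1.32 (0.26 to 2.70) in UT cells, where it rests on 24 against 9 counts, and 3.89 (3.22 to 4.84) after IL-1α. In both comparisons of the lines *Fas* was thus on the high side, where 6.00% (UT) and 7.13% (IL-1α) of all genes were, and the other two were on the low side, where 8.82 and 9.31% were.

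The apoptosis effectors, which include BCL-2 family genes and genes that act in the nucleus and the endoplasmic reticulum, had a median ratio of −0.01 in UT cells. None of the 8 compared was called there, which for so few genes is near the general share, since 6.00% of all genes were higher and 8.82% lower. *Bax*, which permeabilises the outer mitochondrial membrane, had 6810, 6846, 6677 and 6613, with ratios of 0.03 and 0.05. *Apaf1*, the scaffold of the caspase-9 activating complex, had the highest UT ratio of the class, 0.28 (0.18 to 0.38), from 1755, 1778, 1445 and 1622.

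The BH3-only protein genes *Bbc3* (PUMA) and *Pmaip1* (NOXA) both had their largest value in IL-1α-treated +*GFP* cells. *Bbc3* had 412, 531, 347 and 341 normalized counts and passed the rule after IL-1α, with 0.64 (0.44 to 0.84). Scaled to *Gapdh*, this ratio was 0.54 and no longer passed. *Pmaip1* had 1264, 1587, 1312 and 1259, with 0.33 (0.23 to 0.44) after IL-1α.

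*Zmat3*, an RNA-binding zinc finger protein, had 1017, 942, 1281 and 1447. Its ratio was −0.33 (−0.45 to −0.21) in UT cells, the lowest of the class and further from 0 than that of *Apaf1*. After IL-1α it was −0.62 (−0.74 to −0.50), the only effector gene on the low side of the rule. *Trp53inp1*, a cofactor in p53-driven death and autophagy, had 250, 175, 249 and 254, so that IL-1α-treated +*GFP* cells were below 3 similar libraries by −0.53 (−0.82 to −0.25), just short of the rule. *Aen*, an apoptotic nuclease, and *Ei24*, a protein of the endoplasmic reticulum, had ratios between −0.05 and −0.03 in both conditions.

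Among the genes of DNA repair and nucleotide supply, the damage-recognition genes of nucleotide excision repair were level. *Xpc* had 397, 401, 403 and 404, and *Ddb2* had 121, 109, 108 and 134. *Ercc5*, an endonuclease of the same pathway, had 419, 392, 609 and 616. Both +*GFP* values of *Ercc5* were below both +*MK2* values, with −0.54 (−0.72 to −0.36) in UT and −0.65 (−0.84 to −0.47) in IL-1α cells, of which the second passed the rule.

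*Rrm2b*, the p53-induced subunit of ribonucleotide reductase, had 519, 497, 518 and 498 and thus the same value in both lines. *Polk*, a translesion DNA polymerase, had ratios of −0.01 and −0.21. *Gadd45a*, a small stress sensor in repair and arrest (chromosome 6, 67012080 to 67014441), had 20, 74, 38 and 32. It was lower in UT +*GFP* cells (−0.89, −1.79 to −0.11), where the interval is wide because of the low counts, and higher after IL-1α (1.18, 0.59 to 1.86).

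The cell cycle genes held clear differences in both directions. *Psrc1*, a microtubule-binding protein of the spindle (chromosome 3, 108291155 to 108295547), had 676, 671, 1456 and 1464, with −1.11 (−1.24 to −0.97) in UT and −1.12 (−1.26 to −0.99) in IL-1α cells. *Ckap2*, another spindle protein, had 470, 561, 819 and 804, with −0.80 (−0.97 to −0.64) in UT and −0.52 (−0.68 to −0.36) in IL-1α cells. For comparison, none of 10 mitotic genes, listed after the values of *Psrc1* and *Ckap2* had been seen, was called in any comparison. For so few genes this is near the general share, since 6.00% of all genes were higher and 8.82% lower in UT cells. Of the 10, 5 had a UT interval below 0 and 4 above 0, against 26.9 and 30.8% of all genes. Their median ratio was −0.10 in UT and −0.01 in IL-1α cells.

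*Ccng1*, cyclin G1, a feedback regulator of p53 that carries the match with 1 mismatch shown above, had 4333, 4301, 6054 and 5847. It was 1.40-fold and 1.36-fold below +*MK2*, just under the rule, with narrow intervals from −0.54 to −0.43 and from −0.50 to −0.39. *Ppm1d*, the phosphatase WIP1 that ends p53 signaling, lay on the other side with 630, 603, 468 and 499 (0.43 in UT and 0.27 in IL-1α cells). *Plk3*, a stress-responsive polo-like kinase, and *Fbxw7*, the substrate receptor of a ubiquitin ligase, had ratios from −0.05 to 0.29.

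*Plk2*, a polo-like kinase induced early after stimulation (chromosome 13, 110531580 to 110537378), had 1684, 5111, 2397 and 2553. Its UT value was lower in +*GFP*, at −0.51 (−0.60 to −0.42), and its IL-1α value was higher, at 1.00 (0.93 to 1.07). *Plk2* thus changed sides as *Gadd45a* did, though its UT ratio did not pass the rule. By intervals alone, without the fold threshold, 4 of the 38 targets changed sides, against 296 of the 12483 genes. These were *Gadd45a*, *Plk2*, *Gdf15* and *Sesn1*.

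The metabolic targets were split by gene. *Sesn2*, a sestrin that restrains mTORC1 when leucine is short, had 796, 796, 1518 and 1427, with −0.93 (−1.06 to −0.81) in UT and −0.84 (−0.97 to −0.72) in IL-1α cells. Its relative *Sesn1* had 1826, 1463, 1698 and 1806, with 0.10 (0.01 to 0.20) and −0.30 (−0.40 to −0.20). The 2 sestrin genes therefore stood differently, *Sesn2* well below +*MK2* and *Sesn1* near it.

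*Ddit4* (REDD1), another inhibitor of mTORC1, was on the opposite side with 1059, 1245, 770 and 786. Its ratio was 0.46 (0.32 to 0.60) in UT and 0.66 (0.53 to 0.79) in IL-1α cells, of which the second passed the rule, but was 0.56 and did not pass with values scaled to *Gapdh*. *Slc19a2*, a thiamine transporter, had 863, 885, 1343 and 1380, with −0.64 in both comparisons. *Ephx1*, an epoxide hydrolase, had 676, 690, 971 and 1054, with −0.52 (−0.67 to −0.38) and −0.61 (−0.75 to −0.47), of which the second passed.

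Of the remaining metabolic targets, *Fdxr* (ferredoxin reductase of mitochondria), *Dcxr* (a carbonyl reductase), *Ak1* (adenylate kinase) and *Abhd4* (a lipid hydrolase) had ratios between −0.37 and 0.36 and none passed the rule.

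The widest differences outside the receptors came from *Phlda3*, a pleckstrin-homology protein that competes with AKT for membrane lipids (chromosome 1, 135693857 to 135696874). It had 193, 182, 1408 and 1408 normalized counts. The lines were 7.26-fold apart in UT and 7.70-fold apart in IL-1α cells, with ratios of −2.86 (−3.09 to −2.65) and −2.94 (−3.18 to −2.73), and the 2 libraries within each line were nearly the same.

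*Cd82*, a tetraspanin, had 826, 932, 1252 and 1215, with −0.60 (−0.73 to −0.47) in UT and −0.38 (−0.51 to −0.26) in IL-1α cells. *Sulf2*, an extracellular sulfatase of heparan sulfate, had 2433, 2565, 3667 and 3761, with −0.59 (−0.67 to −0.52) and −0.55 (−0.63 to −0.48). Its UT ratio was the nearest to the threshold of those that passed, and *Ercc5*, at −0.54, was the nearest that did not. *Rap2b*, a small GTPase, had −0.20 and −0.16. *Gdf15*, a secreted cytokine of the TGF-β family (chromosome 8, 71082043 to 71085106), had 433, 1775, 570 and 562, which gave −0.40 (−0.58 to −0.21) in UT and 1.66 (1.52 to 1.80) in IL-1α cells.

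**Figure D2:**
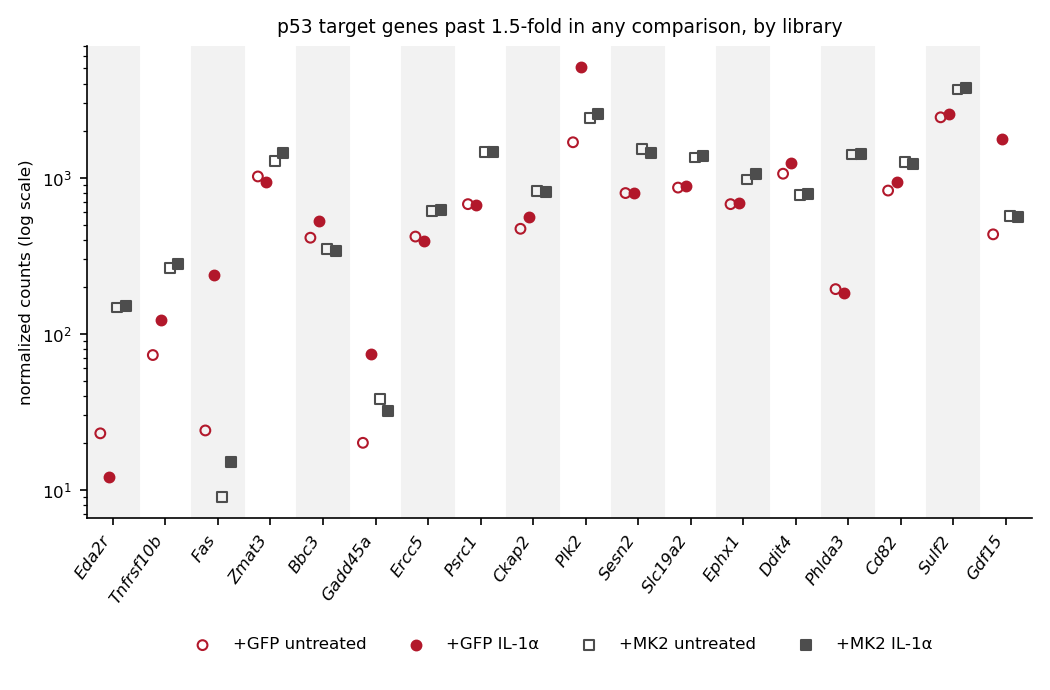
Normalized counts in the 4 libraries, on a log axis, for the targets that passed the 1.5-fold rule in any comparison. In *Phlda3*, *Eda2r*, *Psrc1* and *Sesn2* the libraries separate by line, and in *Fas*, *Gdf15*, *Plk2* and *Gadd45a* the IL-1α-treated +*GFP* library stands alone at the top.

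IL-1α raised 5 of the 38 targets in +*GFP* cells (13.2%, against 3.21% of all genes) and lowered none (against 2.24%). In +*MK2* cells none was raised (against 1.19%) and none was lowered (against 1.43%). For 38 genes each of these counts of 0 is near the general share. The median response was 0.00 in +*GFP* and 0.01 in +*MK2* cells, beside 0.01 for all genes in each line. The 2 responses share no library, and each rests on 1 untreated and 1 treated library.

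The 5 raised genes came from 4 function classes. *Fas* rose 9.48-fold in +*GFP* cells (3.24, 2.69 to 3.97), while in +*MK2* cells 9 and 15 counts gave 0.68 with an interval from −0.55 to 2.11. *Gdf15* rose 4.09-fold (2.03, 1.88 to 2.19) and had −0.02 in +*MK2* cells. *Gadd45a* rose 3.57-fold (1.84, 1.16 to 2.68) and had −0.24 (−0.97 to 0.47) in +*MK2* cells.

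*Plk2* rose 3.03-fold (1.60, 1.52 to 1.68) and had 0.09 (0.01 to 0.17) in +*MK2* cells. *Tnfrsf10b* rose 1.68-fold, with 0.08 (−0.16 to 0.33) in +*MK2* cells. The response in +*GFP* minus that in +*MK2* cells was 2.57 for *Fas*, 2.08 for *Gadd45a*, 2.05 for *Gdf15*, 1.51 for *Plk2* and 0.66 for *Tnfrsf10b*. For *Gadd45a* and *Fas* the +*MK2* values are so low that a modest response there was not detectable.

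Below the threshold, *Bbc3* (0.37, 0.18 to 0.56) and *Pmaip1* (0.33, 0.22 to 0.44) had intervals above 0 in +*GFP* cells, and *Trp53inp1* (−0.51, −0.80 to −0.23) and *Sesn1* (−0.32, −0.42 to −0.22) had intervals below it. In +*MK2* cells the 38 responses ranged from −0.32 to 0.68, with 5 intervals above 0 and none below.

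**Figure D3:**
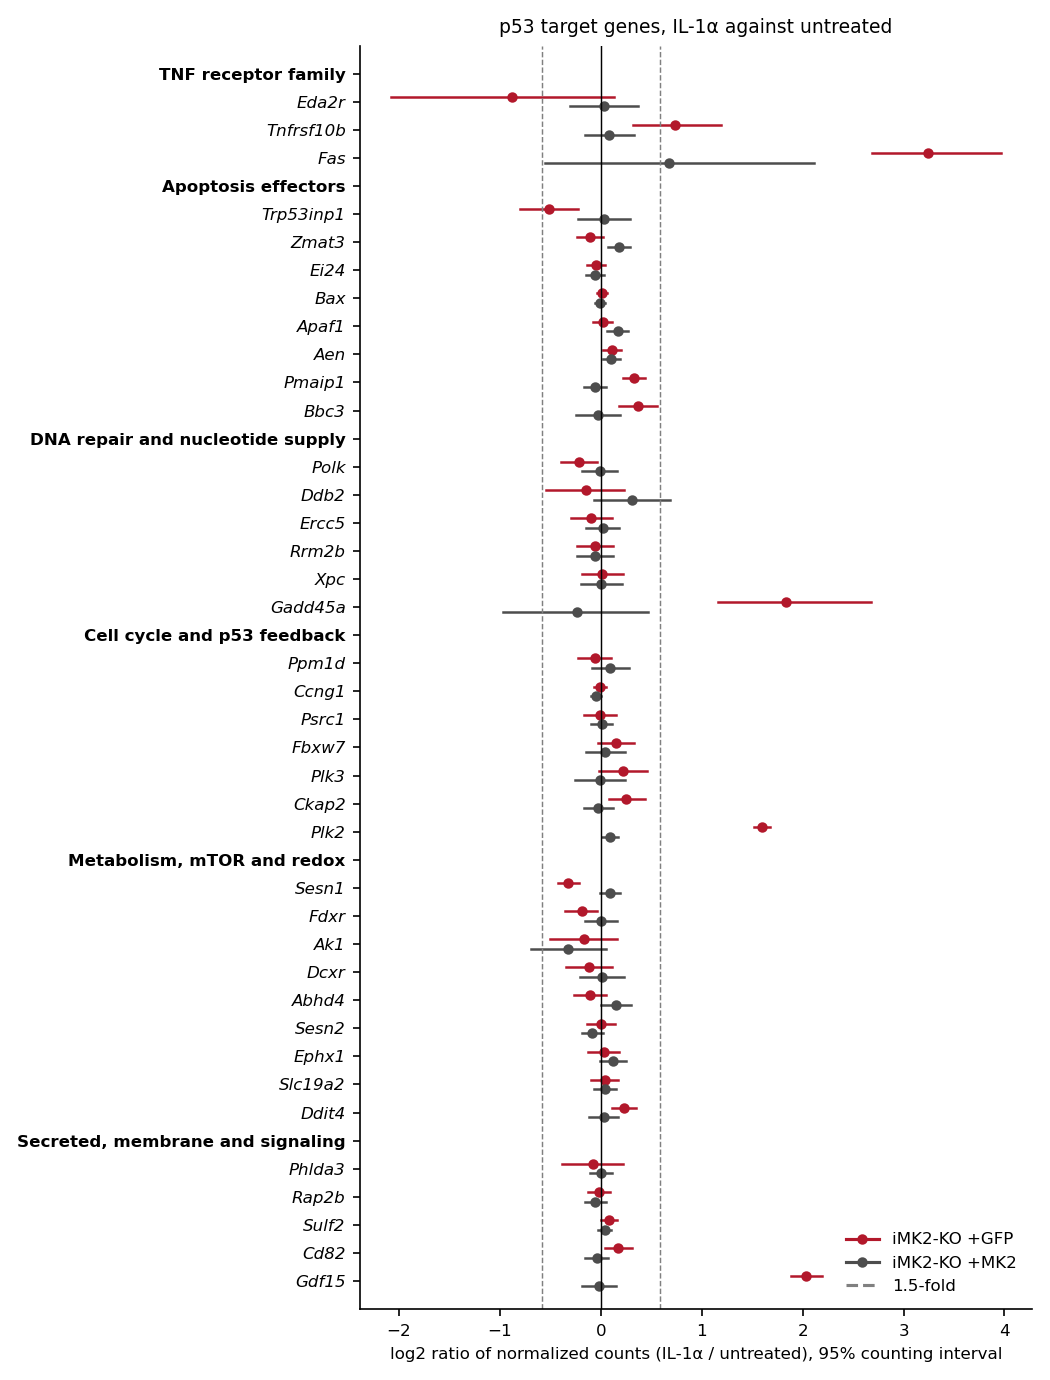
Log2 ratio of IL-1α over untreated for the 38 targets in each line, by function class, with bars for the 95% counting interval and dashed lines at 1.5-fold. *Fas*, *Gdf15*, *Gadd45a*, *Plk2* and *Tnfrsf10b* pass the rule in +*GFP*, and no target does in +*MK2*, which is near the general share.

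Windows were held for 4 of the 5 raised genes, all but *Tnfrsf10b*. The NF-κB consensus (κB) was searched on both strands as GGGRNWYYCC, without mismatch. In it R is A or G, W is A or T, Y is C or T and N is any base. The consensus was in none of the 4, which for so few genes is near the share of all genes given next. Of the 31 targets, 2 held it (6.45%, *Bbc3* and *Ak1*), against 5.14% of all genes with a window and 6.01% of those with a mean of at least 10. The palindrome TGACGTCA, the cyclic AMP response element, was in the window of *Plk2*, 62 bases before the start on the plus strand (chr13:110394982-110394989, GRCm38.p6). It was also in the window of *Ppm1d*, so that 2 of 31 targets held it (6.45%). The share was 2.03% of all genes with a window and 3.69% of those with a mean of at least 10. The palindrome is shown with its flanks for *Plk2*, the early-induced kinase, with the element in capitals.
Plk2: gcgctcgccgTGACGTCAcgaggccccg
Response elements outside these windows were not searched.

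The genes that act on p53 itself are set beside its targets. *Trp53* had 2888, 3849, 2303 and 2426, with a ratio of 0.33 (0.25 to 0.41) in UT cells and 0.67 (0.59 to 0.74) in IL-1α cells. *Mdm4* had 3038, 3318, 9495 and 9320 and was lower in both, at −1.64 and −1.49, while *Mdm2* had 2515, 3903, 3261 and 3656 (−0.37 and 0.09) and rose with IL-1α in +*GFP* cells (0.63, 0.56 to 0.71). *Cdkn1a* (p21), a target of p53 left out of the set here, had 2612, 3157, 5065 and 5170 (−0.96 and −0.71). *Cdkn2a*, whose ARF product restrains MDM2, had 0, 1, 839 and 742. This difference between the lines cannot be told apart from that of MK2, and its part in the ratios of the targets was not tested. Of the 20 regulators and partners compared, *Mdm4*, *Cdkn1a* and *Cdkn2a* were the 3 lower in each comparison of the lines (15.0%, against 8.82 and 9.31% of all genes). *Trp53* was higher after IL-1α (5.00%, against 7.13% of all genes), and the median ratios were 0.10 and 0.09. Whether p53 protein moves with these transcripts was not tested.

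**Figure D4:**
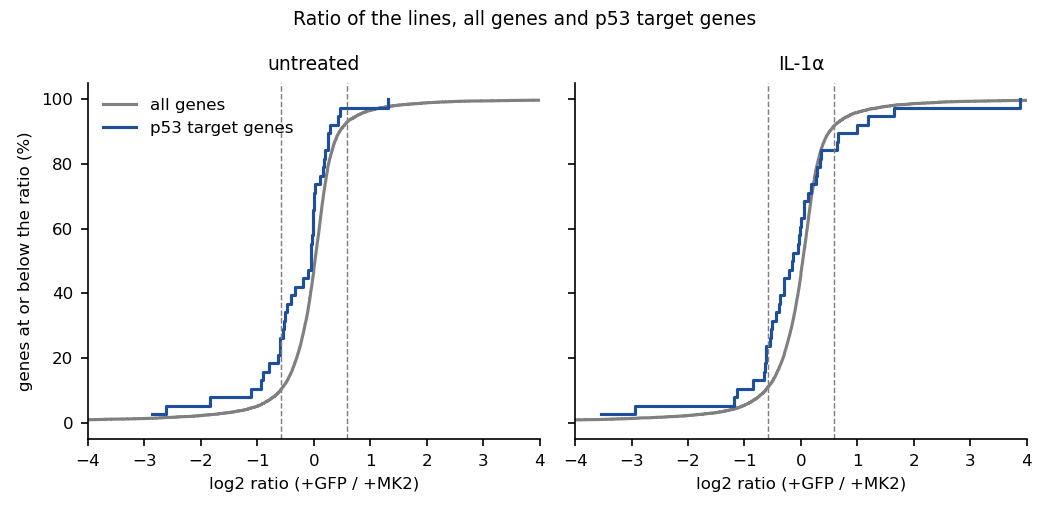
Cumulative share of genes by their log2 ratio of +*GFP* over +*MK2*, for the 38 targets and for all 12483 genes, in UT and in IL-1α cells, with the axis running from −4 to 4. The curve of the targets lies above that of all genes on the low side in both conditions, and the medians are close.

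The 38 targets thus fall into 18 that passed the rule in at least 1 of the 4 comparisons (47.4%, against 23.1% of all genes) and 20 that passed in none. The 20 include most of the apoptosis effectors compared (*Bax*, *Pmaip1*, *Apaf1*, *Aen*, *Ei24* and *Trp53inp1*), but not *Bbc3* and *Zmat3*. They also include most genes of DNA repair (*Ddb2*, *Xpc*, *Polk* and *Rrm2b*) and the feedback genes *Ccng1* and *Ppm1d*. Their ratios over all comparisons ran from −0.53 to 0.43, and their normalized counts from 108 to 6846.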

How the data were processed

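RNA was measured in 4 libraries of immortalized *MK2*-KO macrophages, 1 for each condition, and each library was assigned to its condition from the sample labels. The authors deposited 1 score per gene and library, which are DESeq2 normalized counts rounded to whole numbers, so that neither raw reads nor size factors are held. Column names point to salmon quantification. The sample labels describe selection of polyadenylated RNA with a stranded kit and paired reads, while the paper describes ribo-depleted RNA and single reads. The submitters' processing notes name DESeq2 and GRCm38, without versions. Gene starts in the table matched the GRCm38 annotation for only 1499 of 52080 shared identifiers, although 51501 had the same span, so that its positions belong to another build and were not combined with GRCm38 promoter windows.

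The members, the lists and the rule were chosen with earlier results of these data known. Values were used as deposited, without a count model, as there is 1 library per condition. The log2 ratio was taken with a pseudocount of 1 for 12483 genes whose mean reached 10. The exact 95% Clopper-Pearson interval treats values as reads. A gene was called at 1.5-fold with an interval excluding 0. A value of 3 or less was treated as the floor. All 39 members were accounted for by function, and values were given for each that was called and for the range of each class. Context lists were p53 regulators, mitochondrial apoptosis partners and ATF4 genes, and the mitotic genes were added after values were seen. Promoter windows came from RefSeq. The calling code was tested on simulated data. Python 3.11.15, numpy 2.4.6, pandas 2.3.3, scipy 1.17.1 and matplotlib 3.10.9 were used. The 11 alternatives covered pseudocount, scaling, minimum, threshold and reads per value.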

Additional observations from a re-analysis of the deposited data

How the results depend on the processing

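No paired analysis was possible because each condition has 1 library, and for the same reason no library could be left out. Under the 11 alternatives no called ratio of a named target changed sign. Of the counts and medians recomputed, 123 stayed within their limits and 9 moved, all 9 through the fold threshold, whose own construction changes the count. At a 2-fold threshold the targets lower in +*GFP* were 4 in place of 10 in UT cells (5.05% of all genes) and 4 in place of 9 after IL-1α (5.21%). With no fold threshold, 7 targets were higher and 17 lower in UT cells (30.8 and 26.9% of all genes), 11 were higher and 18 lower after IL-1α (33.7 and 26.3%), IL-1α raised 11 and lowered 4 in +*GFP* cells (20.0 and 12.3%), and raised 5 in +*MK2* cells (11.4%). Of the ratios of single targets, 322 held and 19 no longer passed, most of them at 2-fold. Low counts limit *Fas*, *Eda2r* and *Gadd45a*, and *Gadd45a* is not compared at a minimum mean of 50. The number of reads behind each value is not known, and taking fewer or more reads per normalized count left the numbers of targets called as they were.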

Other observations

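The partners of the apoptotic targets in mitochondrial death were mostly level between the lines. Of these partners, 15 were compared, and in each comparison of the lines 1 was higher and 1 was lower (6.67% each). This is near the general share. Of all genes, 6.00% were higher and 8.82% lower in UT cells, and 7.13% were higher and 9.31% lower after IL-1α. In UT cells *Bmf*, a BH3-only protein, was higher in +*GFP* with 681, 334, 377 and 425 normalized counts (0.85, 0.67 to 1.04), and *Bcl2l1* (BCL-XL), which holds BAX in check, was lower with 851, 863, 1509 and 1448 (−0.83, −0.95 to −0.70). After IL-1α *Bcl2l1* was again lower (−0.75) and *Bcl2l11* (BIM) was higher, from 1311, 2579, 1645 and 1677 (0.62, 0.53 to 0.71). IL-1α raised *Bcl2l11* (0.98) and the survival gene *Mcl1* (7895 to 13062, 0.73) and lowered *Bmf* (−1.03) in +*GFP* cells, in which 3.21% of all genes were raised and 2.24% lowered. None of the 15 was called in +*MK2* cells, where 1.19% of all genes were raised and 1.43% lowered, so that a count of 0 is near the general share.

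*Sesn2*, *Ddit4* and *Gdf15* are also known as genes of the ATF4 stress response, so 15 other genes of that response were set beside them, with *Vldlr*, at 0, left out. In UT cells 6 of the 15 (40.0%) were lower in +*GFP*, against 8.82% of all genes, and 1 was higher (6.67%, against 6.00%). The lower genes included *Chac1* (33, 49, 253 and 251, −2.90), *Trib3* (187, 240, 683 and 633, −1.86), *Atf5* (184, 217, 651 and 627, −1.82) and *Atf4* itself (6514, 7550, 10118 and 9903, −0.64). *Asns* (−0.68) and *Nupr1* (−0.95) were the others. The cystine transporter gene *Slc7a11* was higher, with 1686, 2637, 629 and 683 (1.42). After IL-1α 4 of the 15 were lower (26.7%, against 9.31% of all genes) and 3 were higher (20.0%, against 7.13%), namely *Atf3*, *Ppp1r15a* and *Slc7a11*. IL-1α raised *Atf3*, *Ppp1r15a*, *Slc7a11* and *Nupr1* in +*GFP* cells (26.7%, against 3.21% of all genes) and lowered none (against 2.24%). In +*MK2* cells none was called, where 1.19% of all genes were raised and 1.43% lowered. For so few genes these counts of 0 are near the general share. The median was −0.38 in UT and −0.29 in IL-1α cells, beside 0.02 and 0.03 for all genes. The part of ATF4 in the ratios of *Sesn2*, *Ddit4* and *Gdf15*, of which *Ddit4* had the opposite sign in UT cells, was not tested.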
